A study of Mus musculus with 12 samples.

Results

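Transcripts of 6 enzymes that handle itaconate, nitric oxide, arginine and superoxide were followed in bulk RNA sequencing of mouse preosteoclasts. The members, out of 57010 genes listed in the deposited counts, were chosen by symbol. They are Acod1 (ENSMUSG00000022126), Nos2 (ENSMUSG00000020826), Ass1 (ENSMUSG00000076441), Arg1 (ENSMUSG00000019987), Arg2 (ENSMUSG00000021125) and Sod2 (ENSMUSG00000006818). All 6 were found and all 6 were among the 15425 genes with enough counts to be tested. Detection was unequal. Acod1, Ass1 and Sod2 had at least 10 counts in all 12 libraries, whereas Nos2 reached 10 counts in 6 libraries and Arg1 and Arg2 in 4 libraries each.

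Marrow was taken from female LSD1WT mice and from LSD1cKO mice, in which a LysM-Cre transgene, active in myeloid cells, deletes floxed LSD1 (Kdm1a), a histone demethylase. Each genotype gave 2 mandible libraries and 2 femur libraries of mice ligated for 7 days to cause periodontal inflammation, and 2 femur libraries of unligated mice. All cultures received M-CSF and RANKL for 2 days. The labels give an age of 2 months, which the sequencing methods of the study state differently. The libraries came from 9 mice (5 LSD1WT, 4 LSD1cKO), and both sites were sampled in 3 of the ligated mice (1 LSD1WT, 2 LSD1cKO), so that not all libraries are independent. Mandible LSD1WT replicate 3 is a mandible library by its title and a femur library by its library name, and it was kept as mandible.

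Acod1 makes itaconate from cis-aconitate, an intermediate of the tricarboxylic acid cycle, and is strongly induced in macrophages exposed to inflammatory stimuli. Arginine is shared by competing enzymes: inducible nitric oxide synthase (Nos2) turns it into nitric oxide and citrulline, the arginases (Arg1 in the cytosol, Arg2 in mitochondria) turn it into ornithine and urea, and argininosuccinate synthase (Ass1) starts the path that rebuilds it from citrulline. Sod2 is the manganese superoxide dismutase of mitochondria, which are abundant in osteoclasts.

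Near-identical copies bear on how reads were shared out, so they were searched for among GENCODE vM21 transcripts. The Ass1 transcript aligned to the processed pseudogene Gm5424 over 1240 bases with 6 mismatches and no gap (99.5% identity), and the longest identical run was 398 bases. A 60-base stretch of the Ass1 coding sequence and the matching stretch of Gm5424 are shown to convey how little separates them. Capitals mark the 2 mismatched bases.
Ass1: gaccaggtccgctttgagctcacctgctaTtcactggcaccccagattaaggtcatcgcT
Gm5424: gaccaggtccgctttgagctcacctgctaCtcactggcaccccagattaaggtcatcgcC
Gm5424 had 23 to 761 counts per library, and Ass1 had 2.03 to 3.48 counts for each count of Gm5424. Counts assigned to Ass1 are therefore uncertain by the reads the copy took. A Sod2 transcript shared 3110 bases at 98.3% identity with Rps6ka2 (147 to 406 counts). Arg2 shared 285 exonic bases with Vti1b on the opposite strand (1611 to 4858 counts), and it was not stated whether counting used the strand. Acod1, Nos2 and Arg1 had no such partner.

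Acod1 and Ass1 were the members whose levels did not overlap between the genotypes, and the sequence before their start sites is shown for that reason. The letters are from RefSeq (GRCm38.p6, plus strand), end before the annotated transcript starts, and were available for 3 of the 6 members (Acod1, Ass1 and Sod2). Capitals mark matches on either strand to GGG and CC set 5 bases apart, a core of NF-kappaB sites.
Acod1, chr14:103046762-103046976: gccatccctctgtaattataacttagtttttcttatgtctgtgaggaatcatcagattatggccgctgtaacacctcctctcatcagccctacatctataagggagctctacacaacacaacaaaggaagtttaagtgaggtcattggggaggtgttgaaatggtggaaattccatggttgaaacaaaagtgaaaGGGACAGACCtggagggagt
Ass1, chr2:31470020-31470206: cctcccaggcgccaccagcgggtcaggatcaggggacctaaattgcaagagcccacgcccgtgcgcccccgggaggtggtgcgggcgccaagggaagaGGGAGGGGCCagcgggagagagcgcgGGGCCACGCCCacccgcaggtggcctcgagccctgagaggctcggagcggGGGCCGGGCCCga
In the 250 bases before the RefSeq start, this core matched once for Acod1, 6 times with overlaps for Ass1 and 3 times for Sod2. It matched in 45.8% of 32851 promoters. The GENCODE vM21 gene start lay 35 (Acod1), 63 (Ass1) and 993 (Sod2) bases before the RefSeq start. The printed letters stop there, so the Ass1 match at -63 is not shown. All Sod2 matches lie within the annotated gene. The interferon-stimulated response element (a pair of GAAA set 2 bases apart, in 2.98% of promoters), the C/EBP site (TTGCNNAA, 9.56%) and the AP-1 site (TGANTCA, 6.75%) matched none of the 3 windows. The gamma-activated site (TTCNNNGAA, 7.02%) matched Sod2 once.

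Total counts ran from 21375805 to 32526751 per library, and a count of 0 allows up to 3 counts, which is 0.0927 to 0.154 CPM (read counts scaled to a common library size by TMM). Such limits and the counting intervals below cover counting error only. Kdm1a, the deleted gene, was at 61.2 to 71.3 CPM in LSD1WT and 15.6 to 24.3 CPM in LSD1cKO. The osteoclast label held in 10 libraries, where 20 osteoclast markers summed to 14395 to 46503 CPM. In both LSD1WT femur libraries numbered 2, ligated and unligated, these markers summed to 1192 and 1166 CPM, while 10 macrophage markers summed to 14126 and 11005 CPM against 1631 to 4714 CPM elsewhere. Fewer cells of a type and less RNA per cell cannot be told apart in bulk RNA. Calls and values that turn on these 2 libraries are given with and without them. The 2 mandible LSD1WT libraries, by contrast, were unusually alike (biological coefficient of variation 0.0247, against 0.0987 to 0.716 in the other pairs). Their labels give different mouse numbers, and those of replicate 3 conflict on the site, as stated above. Whether the pair are independent mandible samples was not tested. With 2 libraries per condition, p values describe the spread among these libraries.

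Per kilobase of exon, Ass1 and Sod2 were the most abundant members, with means over the 12 libraries of 14.4 and 13.7 CPM per kilobase. Their ranges, 1.11 to 31.1 for Ass1 and 7.28 to 19.96 for Sod2, overlapped. Acod1 followed at 2.53 CPM per kilobase (0.474 to 7.07), below every Sod2 value. Arg2 (0.263), Nos2 (0.187) and Arg1 (0.102 CPM per kilobase) lay lowest, and their ranges overlapped one another.

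**Figure D1:**
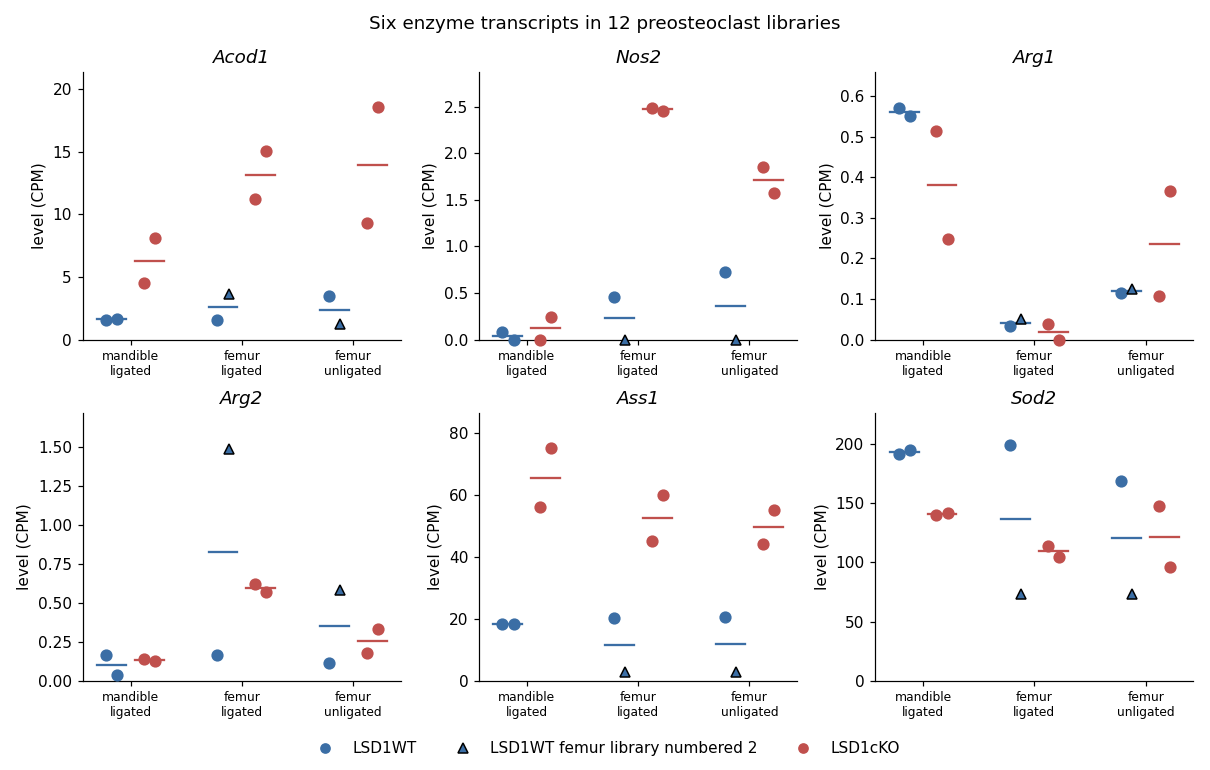
Level (CPM, linear axis from 0) of each member in the 12 libraries by culture, with LSD1WT in blue, LSD1cKO in red, a line at the mean of each pair and triangles for both LSD1WT femur libraries numbered 2. Acod1 and Ass1 separate the genotypes in every culture, Nos2 is near 0 in the mandible, and the triangles are lowest for Ass1 and Sod2 and highest among LSD1WT for Arg2.

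To determine whether LSD1 deletion was accompanied by a change in the itaconate enzyme, Acod1 was examined first. Mandible levels of Acod1 were 1.55 and 1.65 CPM for LSD1WT against 4.50 and 8.07 CPM for LSD1cKO. Ligated femur levels were 1.52 and 3.64 CPM for LSD1WT against 11.2 and 15.0 CPM for LSD1cKO. Unligated femur levels were 3.47 and 1.24 CPM for LSD1WT against 9.27 and 18.5 CPM for LSD1cKO. All 6 LSD1cKO libraries lay above all 6 LSD1WT libraries, and the group means were 11.1 ± 5.04 and 2.18 ± 1.08 CPM (SD, n = 6). Levels within LSD1cKO were lower in the mandible than in either femur culture. Among all genes tested, 1.98% were likewise higher in LSD1cKO without overlap.

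Acod1 rose in LSD1cKO over the 3 cultures, with a log2 fold change of 2.30 (SE 0.34, edgeR quasi-likelihood test, adjusted p = 0.00586). It was the single member called out of 6, against 3.53% of all genes tested, and 3 members (Acod1, Nos2 and Ass1) had an unadjusted p under 0.05, against 16.1% of genes. Without both LSD1WT femur libraries numbered 2 the log2 fold change was 2.32 (SE 0.31, adjusted p = 4.66e-04). With the mouse as a block it was 2.15 (adjusted p = 0.0563), so that the call was lost. In the femur libraries alone, a comparison chosen after seeing the data, it was 2.45 (adjusted p = 0.128). Summed macrophage markers did not separate the genotypes (1631 to 4714 CPM in LSD1cKO, 2080 to 14126 CPM in LSD1WT), and 11 neutrophil markers summed to 143 to 309 CPM in LSD1cKO and 92.2 to 285 CPM in LSD1WT. Their part in the Acod1 difference was not tested.

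Ass1, which feeds arginine resynthesis, showed the same separation at a higher level. Both LSD1WT mandible libraries held 18.3 CPM of Ass1, and the LSD1cKO mandible libraries held 56.1 and 75.0 CPM. Femur libraries of ligated mice held 20.3 and 2.67 CPM (LSD1WT) or 45.0 and 59.9 CPM (LSD1cKO). Femur libraries of unligated mice held 20.6 and 2.86 CPM (LSD1WT) or 44.3 and 55.0 CPM (LSD1cKO). The groups did not overlap, and the lowest LSD1WT values were those of the libraries numbered 2. Group means were 13.8 ± 8.63 CPM in LSD1WT and 55.9 ± 11.3 CPM in LSD1cKO (SD, n = 6).

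The log2 fold change of Ass1 over the 3 cultures was 2.03 (SE 0.50, edgeR, adjusted p = 0.0560), short of the threshold of 0.05. Leaving out both LSD1WT femur libraries numbered 2 lowered it to 1.58 with a smaller error (SE 0.15, adjusted p = 6.21e-05), and Ass1 was then called higher. Leaving out any 1 of the 4 LSD1WT femur libraries also gave a call, with log2 fold changes of 1.81 to 2.49. The counts of Gm5424 were also added to those of Ass1, a setting chosen after seeing the data. The log2 fold change was then 2.05 (edgeR, adjusted p = 0.0438), and the gene was called. The share of all genes called, with 1 LSD1WT femur library left out or Gm5424 added, was not set beside these calls. That share rose without both libraries numbered 2, as given below. Gm5424 itself was the gene whose log2 level most resembled that of Ass1 across the 12 libraries (Pearson r = 0.993, a description over libraries that share mice).

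Nos2 was low and uneven, so its counts are given. The mandible had 2 and 0 Nos2 counts under LSD1WT against 0 and 8 under LSD1cKO. The ligated femur had 14 and 0 counts under LSD1WT against 64 and 56 under LSD1cKO. The unligated femur had 19 and 0 counts under LSD1WT against 52 and 43 under LSD1cKO. Femur LSD1cKO libraries were all above femur LSD1WT libraries, whereas the mandible groups overlapped at or near the limit of detection. Both LSD1WT femur libraries with 0 counts were those numbered 2, low in osteoclast markers and high in macrophage markers.

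Pooled counts gave a Nos2 ratio of LSD1cKO to LSD1WT of 8.90 in the ligated femur (95% exact counting interval 5.10 to 16.8) and 4.55 in the unligated femur (2.76 to 7.88). In the mandible the ratio was 3.37 (0.672 to 32.6), so that no difference was detectable at this depth. These intervals leave out the spread between mice. The log2 fold change over the 3 cultures was 2.57 (SE 0.92, edgeR, adjusted p = 0.185). Without both LSD1WT femur libraries numbered 2 it was 1.82 (SE 0.56, adjusted p = 0.0382), and Nos2 was then called higher.

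The arginases did not follow Acod1 and Ass1. Arg1 counts in the mandible were 14 and 15 (LSD1WT) or 15 and 8 (LSD1cKO). Arg1 counts in the femur of ligated mice were 1 and 1 (LSD1WT) or 1 and 0 (LSD1cKO). Arg1 counts in the femur of unligated mice were 3 and 3 (LSD1WT) or 3 and 10 (LSD1cKO). Arg1 was thus at 3 counts or fewer in 7 libraries, and the genotypes had 37 pooled counts each. The ratio of LSD1cKO to LSD1WT was 0.922 (95% exact counting interval 0.569 to 1.5), and the fitted log2 fold change was -0.04 (SE 0.50, edgeR, adjusted p = 0.981).

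Arg2 counts in the mandible were 4 and 1 (LSD1WT) or 4 and 4 (LSD1cKO). Arg2 counts in the femur of ligated mice were 5 and 29 (LSD1WT) or 16 and 13 (LSD1cKO). Arg2 counts in the femur of unligated mice were 3 and 14 (LSD1WT) or 5 and 9 (LSD1cKO). The highest LSD1WT counts were those of both libraries numbered 2. The genotypes overlapped. The log2 fold change over the 3 cultures was -0.23 (SE 0.59, edgeR, adjusted p = 0.900) and its sign turned without those libraries, to 1.20 (SE 0.50, adjusted p = 0.108).

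Sod2 was abundant in every library. Mandible libraries held 192 and 196 CPM of Sod2 with LSD1WT against 140 and 142 CPM with LSD1cKO. Ligated femur libraries held 199.8 and 73.1 CPM with LSD1WT against 114 and 105 CPM with LSD1cKO. Unligated femur libraries held 169 and 72.9 CPM with LSD1WT against 148 and 96.4 CPM with LSD1cKO. The 4 highest values were LSD1WT and so were the 2 lowest, which were the libraries numbered 2, and the genotypes overlapped. The log2 fold change over the 3 cultures was -0.26 (SE 0.27, edgeR, adjusted p = 0.709). Without both libraries numbered 2 it was -0.54 (SE 0.12, adjusted p = 0.0105), and Sod2 was then called lower in LSD1cKO.

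Sod2 was highest where the osteoclast marker sum was highest and lowest where it was lowest. The sum was 46503 CPM in the library with 199.8 CPM of Sod2 (LSD1WT ligated femur, replicate 1) and 42648 CPM in the one with 169 CPM (LSD1WT unligated femur, replicate 1). In LSD1cKO the lowest Sod2 level, 96.4 CPM, was in the library with the lowest sum, 14395 CPM, and the highest, 148 CPM, in that with the highest sum, 33852 CPM. In the mandible the sum was 30815 and 30676 CPM in LSD1WT and 17867 and 17888 CPM in LSD1cKO. The order was not strict. In LSD1WT both mandible libraries had more Sod2 (192 and 196 CPM) than the unligated femur replicate 1 (169 CPM), at lower sums. The LSD1cKO mandible had more Sod2 than the LSD1cKO ligated femur at sums of 23874 and 20969 CPM. Across the genotypes Ass1 did not follow this order, since LSD1cKO libraries with lower sums than the LSD1WT mandible had higher Ass1. Within LSD1WT it was lowest at the lowest sums (2.67 and 2.86 CPM). It was 18.3 CPM in both LSD1WT mandible libraries and 20.3 and 20.6 CPM at the highest sums. Within LSD1cKO the lowest Ass1 level, 44.3 CPM, was at the highest sum. The part of cell composition in the Sod2 and Ass1 differences was not tested.

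**Figure D2:**
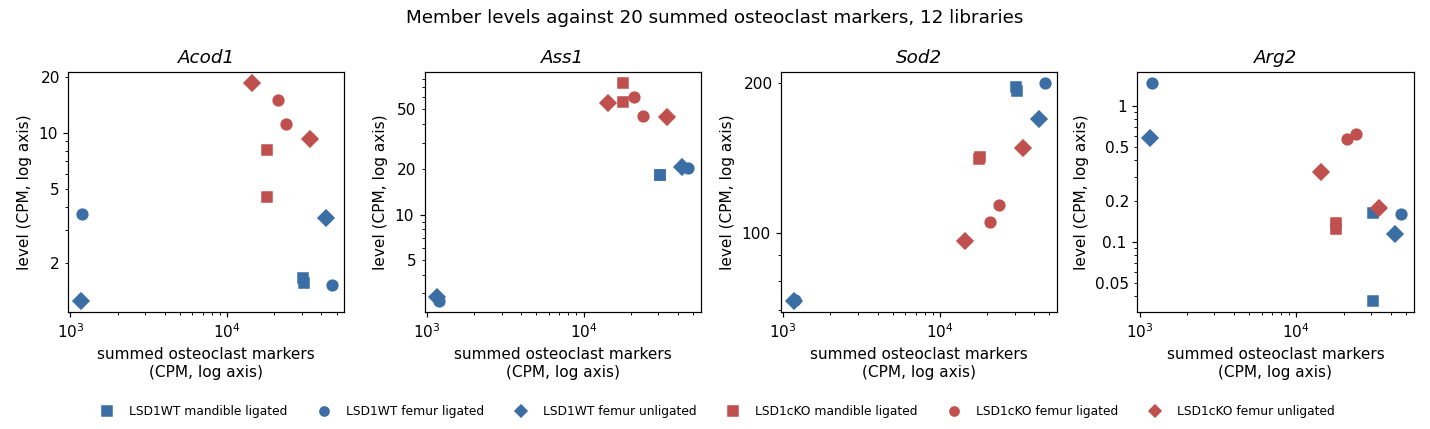
Level of Acod1, Ass1, Sod2 and Arg2 (CPM, log axis) against the summed level of 20 osteoclast markers (CPM, log axis), 1 point per library. The 2 points at 1192 and 1166 CPM of markers are the LSD1WT femur libraries numbered 2, which have the lowest Sod2 and Ass1. At the marker sums of the other libraries, LSD1cKO lies above LSD1WT for Acod1 and Ass1.

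Taken without both LSD1WT femur libraries numbered 2, 4 of the 6 members were called over the 3 cultures: Acod1, Nos2 and Ass1 were higher and Sod2 was lower in LSD1cKO. The share of all genes called was also larger, 24.2% against 3.53% (14.4% higher, 9.75% lower). The LSD1WT femur conditions then held 1 library each, whose spread was assumed to equal that of the rest.

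Within single cultures, edgeR called no member at the adjusted threshold. In the mandible the log2 fold changes were 1.97 (SE 0.63) for Acod1, 1.84 (SE 0.96) for Ass1 and -0.46 (SE 0.50) for Sod2, and the 2 libraries of each genotype did not overlap for any of these, nor for Arg1 (-0.56, SE 0.70). Stromal and osteoblast markers (8 genes, of which 0 or 1 was at 0) summed to 41.3 and 41.8 CPM in LSD1WT mandible and 8.83 and 3.62 CPM in LSD1cKO mandible. Mast cell and basophil markers (6 genes, of which 3 to 5 were at 0) summed to 2.49 and 2.90 CPM against 6.01 and 6.71 CPM, and 5 of the 6 had at most 5 counts in any library, Gata2 being the exception. Their part in the mandible differences was not tested. Of all genes tested 0% were called there, 4.82% had an unadjusted p under 0.05, and without overlap 34.1% were higher and 34.8% lower. Among the members, Acod1 alone was under 0.05 before adjustment, and DESeq2 called none. Fitted to the 4 mandible libraries alone, edgeR called 3 members (Acod1 and Ass1 higher, Sod2 lower) and 37.7% of all genes. Without both LSD1WT femur libraries numbered 2, Acod1 (2.00, adjusted p = 0.0373) and Ass1 (1.88, adjusted p = 0.00313) were called in the mandible, with 5.85% of all genes. The fit to 4 libraries takes its spread in part from the LSD1WT pair that were so alike.

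For the ligated femur the log2 fold changes were 2.35 (SE 0.64) for Acod1, 3.31 (SE 1.63) for Nos2 and 2.19 (SE 0.97) for Ass1. These 3 members were higher in LSD1cKO without overlap, as were 14.8% of all genes tested, and 0.00648% of genes were called. For the unligated femur they were 2.56 (SE 0.64) for Acod1, 2.21 (SE 1.55) for Nos2 and 2.08 (SE 0.97) for Ass1. Again these 3 were higher without overlap, against 9.82% of all genes, and 0% of genes were called. In each femur culture Acod1 alone had an unadjusted p under 0.05, as did 6.88% of genes in ligated and 4.95% in unligated mice. DESeq2 called Acod1 alone among the members (adjusted p = 0.0184 and 0.0158). The shares of genes called given here are those of edgeR. DESeq2 called many more genes in each femur culture, and their numbers are given below. The sizes for Nos2 and Ass1 turned on which LSD1WT library was kept. Without replicate 2, Nos2 was 2.43 (ligated) and 1.24 (unligated) and Ass1 was 1.37 and 1.27, with no call. Without replicate 1, Ass1 was 4.38 and 4.19, with no call, and Nos2 was set against 0 counts, so that its fitted value (9.05 and 8.53) is no measure of size. Without both libraries numbered 2, edgeR called Acod1 (3.19, adjusted p = 0.0161) and Ass1 (1.46, adjusted p = 0.0171) in the ligated femur, with 9.35% of genes, and no member in the unligated femur, with 2.47% of genes.

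**Figure D3:**
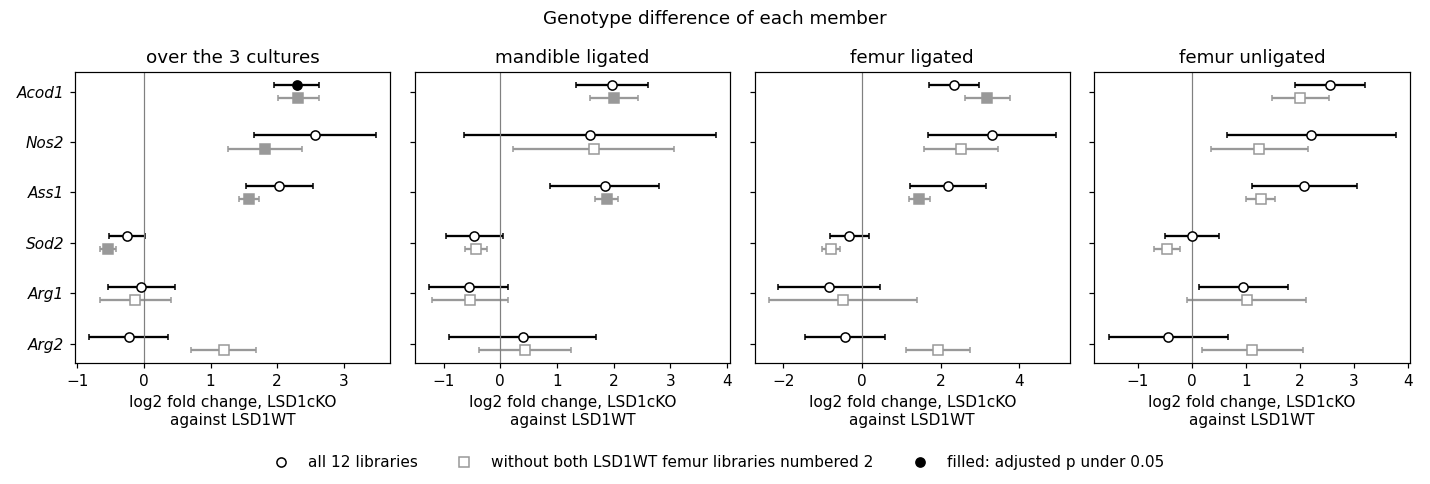
Log2 fold change of LSD1cKO against LSD1WT (bars: ± SE) for each member over the 3 cultures and in each culture, from all 12 libraries (black circles) and without both LSD1WT femur libraries numbered 2 (grey squares), filled where the adjusted p was under 0.05. Acod1, Nos2 and Ass1 lie to the right of 0 in every panel, and Arg2 over the 3 cultures moves from -0.23 to 1.20 when the 2 libraries are left out.

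Whether the genotype difference depended on site or ligature was tested as an interaction. No member was called in either by edgeR or by DESeq2, and none had an unadjusted p under 0.05, against 0.966% of genes for site and 0.344% for ligature. For Acod1 the interaction with site was -0.38 (SE 0.87) and that with ligature was -0.20 (SE 0.86) on the log2 scale. For Nos2 the interaction with site was -1.72 (SE 3.21). Without both LSD1WT femur libraries numbered 2 the Acod1 values were -1.19 (SE 0.68) and 1.18 (SE 0.71), again with no call. Errors of this size leave differences of several fold undetected.

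Arg1 was higher in the mandible than in the ligated femur in both genotypes, at low counts. Mandible libraries of ligated mice held 29 Arg1 counts against 2 in the ligated femur in LSD1WT, a ratio of 14.1 (95% exact counting interval 3.57 to 122), and 23 against 1 in LSD1cKO, a ratio of 18.2 (2.95 to 748). The 4 mandible libraries (8 to 15 counts) lay above the 4 ligated femur libraries (0 or 1 count), while 29.2% of genes in LSD1WT and 35.3% in LSD1cKO were likewise higher in the mandible without overlap. The unligated femur did not keep this order, since LSD1cKO replicate 2 (10 counts, 0.367 CPM) lay above LSD1cKO mandible replicate 2 (8 counts, 0.247 CPM). In the 3 mice with both libraries, Arg1 had 14 counts in the mandible and 1 in the femur of the LSD1WT mouse, and 15 and 1, and 8 and 0, in the LSD1cKO mice. The log2 fold changes were 3.65 (SE 0.91, edgeR, adjusted p = 0.167) in LSD1WT and 3.93 (SE 1.02, adjusted p = 0.186) in LSD1cKO, and neither was called. Without both LSD1WT femur libraries numbered 2, Arg1 (3.92, adjusted p = 0.0430) and Nos2 (-4.24, adjusted p = 0.0121) were called in LSD1cKO, with 3466 of 16008 genes called. In LSD1WT the value rests in part on the library with conflicting labels. Taken as femur, it lowered the log2 fold change to 1.41.

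Nos2 and Acod1 had the opposite order in LSD1cKO. The LSD1cKO mandible held 8 Nos2 counts against 120 in the ligated femur, a ratio of 0.0526 (95% exact counting interval 0.0222 to 0.107), and the log2 fold change was -4.24 (SE 1.72, edgeR, adjusted p = 0.296). Acod1 was lower in the mandible than in the femur of both LSD1cKO mice (4.50 against 11.2 CPM, and 8.07 against 15.0 CPM), with a log2 fold change of -1.06 (SE 0.61, adjusted p = 0.472). Arg2 had 8 counts against 29, with a log2 fold change of -2.15 (SE 1.13, adjusted p = 0.426). Nos2, Acod1 and Arg2 were lower in the mandible without overlap, as were 35% of genes. Fitted to the 4 compared libraries alone, edgeR called Acod1, Nos2 and Arg2 lower and Sod2 higher in the mandible (4 members), with 6101 of 14475 genes called, and Arg1 was not tested there. With all 12 libraries edgeR and DESeq2 called none, 2 members (Nos2 and Arg1) had an unadjusted p under 0.05, and 15% of genes did.

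In LSD1WT, Arg2 was lower in the mandible (5 counts) than in the ligated femur (34 counts, of which 29 in replicate 2), with a log2 fold change of -2.97 (SE 1.19, edgeR, adjusted p = 0.228). A call of Arg2 without the other ligated femur library, replicate 1, rested on replicate 2 alone. That library was low in osteoclast and high in macrophage markers, as stated above. The log2 fold change was -0.67 (SE 0.94) without both libraries numbered 2. Fitted to all 12 libraries, edgeR called 0% of genes in both site comparisons. In LSD1WT 2 members (Arg1 and Arg2) had an unadjusted p under 0.05, as did 19.8% of genes, and DESeq2 called no member.

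Ligature made no detectable difference to Acod1, Ass1 or Sod2 in the femur, with log2 fold changes of 0.12 (SE 0.62), -0.03 (SE 0.94) and 0.17 (SE 0.50) in LSD1WT and -0.08 (SE 0.60), 0.08 (SE 0.93) and -0.16 (SE 0.50) in LSD1cKO. Arg1 had 1 count in ligated and 13 in unligated LSD1cKO femur (log2 fold change -3.26, SE 1.05, edgeR, adjusted p = 1), and 10 of the 13 counts were in 1 library. In LSD1WT the Arg1 counts were 2 and 6. No member was called by edgeR or DESeq2 in either genotype, and 1 (Arg1 in LSD1cKO) had an unadjusted p under 0.05, against 0.765% of genes in LSD1WT and 0.959% in LSD1cKO.

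The genes around the members were described by 7 lists. In the list of the tricarboxylic acid cycle and itaconate handling, 22 of 23 tested genes were lower and 1 higher in the LSD1cKO mandible without overlap, while 34.8% of all genes were lower without overlap, and the list median was -0.45 on the log2 scale against 0 for all genes. No gene of the list was called there by edgeR (0 with an unadjusted p under 0.05) or by DESeq2. Fitted to the 4 mandible libraries alone, edgeR called 22 of the 23 lower, with 37.7% of all genes called. Citrate synthase (Cs) was at 817 and 812 CPM in LSD1WT and 606 and 654 CPM in LSD1cKO mandible. Idh1, the cytosolic isocitrate dehydrogenase, was the exception, at 76.9 and 78.0 CPM against 80.7 and 91.0 CPM. In the mandible Cs was lower in the genotype with the lower osteoclast marker sums given above, whereas Idh1 was not. This order was not general, since the LSD1cKO ligated femur had less Cs (525 and 513 CPM) than the LSD1cKO mandible at higher sums. The part of cell composition was not tested. Over the 3 cultures the median was -0.19 against -0.06 for all genes, with no call by edgeR (1 gene with an unadjusted p under 0.05) or DESeq2. Without both LSD1WT femur libraries numbered 2 it was -0.50 against 0.02. In that fit 16 genes were called lower and 1 (Idh1) higher, against 9.75% and 14.4% of all genes. The itaconate transporter gene Slc13a3 was at 10.6 to 22.3 CPM in LSD1cKO and 1.20 to 17.9 CPM in LSD1WT (log2 fold change 0.36, SE 0.59, and -0.20 without both libraries numbered 2, with no call).

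Genes linked to itaconate through NRF2 and ATF3 did not move as a block. Of 11 genes, 1 was called over the 3 cultures, as were 3.53% of all genes. It was Slc7a11, the cystine transporter, which rose by a log2 fold change of 1.34 (SE 0.31, edgeR, adjusted p = 0.0443). Its levels were 1.90 to 7.14 CPM in LSD1WT and 5.64 to 20.1 CPM in LSD1cKO. The list median was -0.27, and Nfe2l2, which encodes NRF2 (log2 fold change -0.27, SE 0.28), and Hmox1 (-1.13, SE 0.57) did not pass. Without both libraries numbered 2 the median turned to 0.32. In that fit edgeR called 6 genes higher, Nfe2l2 among them (0.32, adjusted p = 0.0321), and 1 lower, against 14.4% and 9.75% of all genes. Hmox1 turned to 0.24 (adjusted p = 0.127).

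In the list for nitric oxide synthesis and its cofactor, edgeR called 0 of 8 tested genes (1 with an unadjusted p under 0.05), DESeq2 called Gch1, and the median was -0.14. Gch1, the first enzyme of tetrahydrobiopterin synthesis, was at 15.5 to 24.5 CPM in LSD1WT and 23.9 to 43.9 CPM in LSD1cKO (log2 fold change 0.69, SE 0.19, adjusted p = 0.0794). Without both libraries numbered 2, Gch1 was called higher (0.70, adjusted p = 0.0431) and Qdpr, which recycles the cofactor, lower (-0.37, adjusted p = 0.0104). In the list of the urea cycle, arginine transport and polyamines, edgeR called 0 of 17 (1 with an unadjusted p under 0.05), DESeq2 called none, and the median was -0.15. Asl, which completes the step after Ass1, stayed at 44.8 to 54.1 CPM in LSD1WT and 38.2 to 50.3 CPM in LSD1cKO (log2 fold change -0.18, SE 0.09, adjusted p = 0.351). Asl thus did not show the difference seen for Ass1. The arginine transporters Slc7a1 (-0.15, SE 0.47) and Slc7a2 (-0.48, SE 0.56), ornithine decarboxylase Odc1 (-0.13, SE 0.29) and ornithine aminotransferase Oat (-0.24, SE 0.12) did not pass. Without both libraries numbered 2, 4 of the 17 were called, as were 24.2% of all genes. Gatm, which uses arginine for creatine synthesis (1.38, adjusted p = 0.00173), and the arginine exporter Slc7a7 (0.86, adjusted p = 0.00110) were higher, and Odc1 (-0.40, adjusted p = 0.0179) and the mitochondrial ornithine carrier Slc25a15 (-0.50, adjusted p = 0.00857) were lower. Slc7a2 turned to 0.44 and Slc7a1 was -0.43 in that fit, with no call. In the list of superoxide and peroxide defence, edgeR called 0 of 13 (3 with an unadjusted p under 0.05), DESeq2 called none, and the median was -0.09. Sod1, the cytosolic dismutase, was at 171 to 330 CPM in LSD1WT and 319 to 386 CPM in LSD1cKO (0.37, SE 0.16), and catalase (Cat) at 176 to 1517 CPM and 143 to 191 CPM (-1.41, SE 0.53). The high LSD1WT values of Cat, 1517 and 760 CPM, were those of both libraries numbered 2. Without them Cat was -0.24 (edgeR, adjusted p = 0.103). In that fit 2 of the 13 were called, both lower, against 9.75% of all genes called lower. They were the mitochondrial proteins Prdx3 (-0.50, adjusted p = 0.00308) and Txn2 (-0.40, adjusted p = 0.00857).

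Among inducers and companions of inflammatory macrophages, edgeR called 3 of 16 tested genes, all higher, and the list median was 0.14. By edgeR 3% of all genes were called higher. DESeq2, which called more genes in all than edgeR (numbers given below), called 5 of 18 genes with an adjusted p, all higher. Cxcl10, a chemokine of the interferon response, rose by a log2 fold change of 3.00 (SE 0.53, edgeR, adjusted p = 0.0127), and Ptgs2, the inducible prostaglandin synthase, by 1.61 (SE 0.21, adjusted p = 0.00367). Cxcl10 in LSD1cKO was at 4.74 and 10.3 CPM in the mandible, 78.0 and 107 CPM in the ligated femur and 54.3 and 34.5 CPM in the unligated femur, the order of sites also seen for Nos2. Irf1, which acts upstream of Nos2 in macrophages (0.62, SE 0.19), Tnf (-0.12, SE 0.43) and Il1b (-0.61, SE 0.59) did not pass. Among genes of alternative macrophage activation, edgeR called 1 of 10 (list median 0.02) and DESeq2 called 2 (Klf4 and Mgl2). The gene called by edgeR was Klf4, a transcription factor, at 9.60 to 16.1 CPM in LSD1WT and 29.3 to 41.3 CPM in LSD1cKO (1.61, SE 0.16, adjusted p = 9.19e-04). Mgl2, a macrophage lectin, had a log2 fold change of 1.70 (SE 0.52, edgeR, adjusted p = 0.121). Stat6 (0.01, SE 0.20) and Cebpb (-0.24, SE 0.45) did not pass. Without both libraries numbered 2, the counts called higher were 10 of 17 and 7 of 10 in these 2 lists, with none lower. Of all genes 14.4% were called higher and 9.75% lower in that fit. Irf1 (0.88), Stat6 (0.41) and Cebpb (0.81) were among the genes called, while Tnf (0.67) and Il1b (0.32) turned sign with no call.

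**Figure D4:**
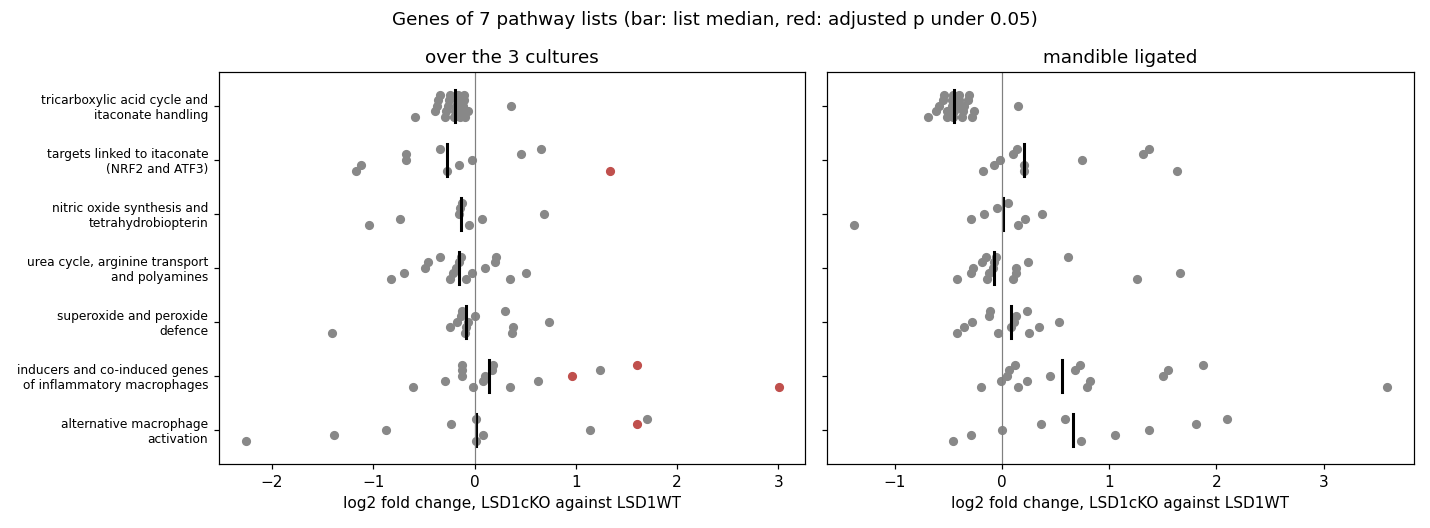
Log2 fold change of LSD1cKO against LSD1WT for each tested gene of the 7 lists, over the 3 cultures (left) and in the mandible (right), with the list median as a bar and called genes in red. The tricarboxylic acid cycle genes form a tight group left of 0 in the mandible (median -0.45), and the called genes (Slc7a11, Cxcl10, Ptgs2 and Klf4 among them) lie to the right of 0.

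The genes whose log2 levels most resembled each member across the 12 libraries differed between members. For Acod1 they were Pira1 (Pearson r = 0.961), H2-Q7 (0.951) and Sirpb1c (0.949), and for Nos2 they were Spib (0.958), Bcat2 (0.957) and Parp3 (0.943). For Ass1, after Gm5424, they were Unc13b (0.987) and Fgr (0.983). For Arg1 they were Gm45053 (0.949), Pgs1 (0.936) and Slc27a1 (0.923), and for Arg2 they were Gpr34 (0.966), 1700087I21Rik (0.966) and Prdx5 (0.954). For Sod2 they were Smpd1 (0.996), Bcr (0.995) and Ank (0.989). These are descriptions over libraries that share mice and include both libraries numbered 2, and for Nos2, Arg1 and Arg2 they rest on low counts. Between members, Acod1 and Nos2 had a correlation of 0.744, and Sod2 and Arg2 of -0.868.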

How the data were processed

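PolyA RNA of 12 preosteoclast libraries was analysed from the counts that the authors deposited. These are whole-number read counts per Ensembl gene, without normalization or a filter. The submitters' processing notes name HISAT2 2.1.0, FastQC, featureCounts, edgeR and GRCm39. The strand setting is not given in the sources used here, and a wrong share-out of reads between near-identical copies or opposite strands would alter Ass1, Sod2 and Arg2 most. Samples were grouped by title. Sequences and exon lengths came from GRCm38 annotation (RefSeq, GENCODE vM21), and no coordinate was attached to the counts.

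In R 4.3.3, genes were kept with filterByExpr of edgeR 4.0.16, libraries were scaled by TMM, and quasi-likelihood models were fitted to all 12 libraries, with 1 coefficient per condition or with culture and genotype as terms. P values were adjusted by Benjamini-Hochberg over 15425 genes with a threshold of 0.05. Log2 CPM for likeness used a prior count of 2. SE is the log2 fold change divided by the square root of the F statistic. Intervals for pooled counts are exact and binomial. Copies were aligned with megablast (at least 200 bases and 95% identity). The models were run on simulated counts, with every library drawn independently around the mean of each gene and set changes in some genes. That simulation held no shared mice and no libraries set apart by their markers. It cannot show how calls that turn on those features behave. DESeq2 1.42.0, other scalings and filters, blocks (limma 3.58.1) and left-out libraries were alternatives.

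The members, lists, naming rule (the members, Kdm1a, 3 most alike genes per member, direct partners, and called genes of the lists, with exceptions; genes called under an alternative alone were named after their values were seen) and alternatives were chosen with earlier results of these data known. Libraries of the same mouse deviated from their group means with correlations of 0.0260 to 0.0296. For libraries of different mice with the same replicate number the correlations were -0.197 to 0.780. With 2 libraries per condition the deviations of a pair mirror each other, so these values cannot show whether shared mice matter. The pairing comes from mouse numbers in the labels. The authors' other assays were not analysed here. Some genes of the lists are counted but not reported here by name.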

Additional observations from a re-analysis of the deposited data

Results flagged for a closer look

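Arg2 was at 1.49 CPM (29 counts) in LSD1WT femur ligated replicate 2, apart from the other 5 LSD1WT libraries, which were at 0.0367 to 0.580 CPM. The gap was 0.626 of the range of the 6 libraries, just past Dixon's 95% critical value for 6 samples. Chance passes that value in about 1 of 20 groups, and 12 groups of 6 (6 members in 2 genotypes) were examined. The same library was low in osteoclast markers (1192 CPM) and high in macrophage markers (14126 CPM), and the part of cell composition was not tested.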

How the results depend on the processing

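Counts of members called are given first. Over the 3 cultures 1 member was called in the reported fit. This was 2 (Acod1 and Ass1) with DESeq2, with no filter beyond 1 count, with limma voom and the mouse as a random block, and with Gm5424 added to Ass1. It was 1 to 2 with single libraries left out, 4 without both LSD1WT femur libraries numbered 2 and, with the mandible LSD1WT libraries also summed, 4. It was 0 with the replicate block by mouse and 0 in the femur libraries alone. In the mandible 0 became 2 (Acod1 and Ass1) without both libraries numbered 2 and 3 in the compared libraries alone. In the ligated femur 0 became 1 with DESeq2 and 2 (Acod1 and Ass1) without both libraries numbered 2. In the unligated femur 0 became 1 with DESeq2. Between sites, the count was 0 to 1 in LSD1WT with single libraries left out (Arg2, without femur ligated replicate 1), and in LSD1cKO 2 (Nos2 and Arg1) without both libraries numbered 2 and 4 in the compared libraries alone. Interactions and ligature gave 0 throughout. The cause of these shifts was not tested. Genes called over the 3 cultures were 544 in the reported fit, 1210 with DESeq2, 3867 without both libraries numbered 2 and 22 in the femur alone. Within single cultures edgeR called 0 or 1 gene and DESeq2 145 (mandible), 207 (ligated femur) and 120 (unligated femur). Between sites edgeR called 0 and DESeq2 1145 (LSD1WT) and 753 (LSD1cKO). Settings chosen after seeing the data were the Gm5424 sum, the femur libraries alone and the summed mandible libraries without both libraries numbered 2.

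The replicate block by mouse gave Acod1 a log2 fold change of 2.15 (edgeR, adjusted p = 0.0563). The replicate block by number changed no member call, and the fixed block by mouse changed no other. With the mouse as a random block in limma voom, Ass1 was called (2.45, adjusted p = 0.0325). The within-mouse correlation that voom estimated, in its fit with 1 coefficient per condition, was -0.39. A negative value does not describe libraries made alike by a shared mouse. The replicate block kept 1 member called and lowered the genes called over the 3 cultures from 544 to 403, and the block by mouse lowered them to 114.

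Signs turned for weak effects. Over the 3 cultures, Sod2 ran from -0.39 to 0.0091 with single libraries left out. Arg1 ran from -0.46 to 0.27 and was 0.018 without a filter, 0.074 with mandible LSD1WT summed, 0.038 with the replicate block and 0.024 with the block by mouse. Arg2 ran from -0.47 to 0.42, and was 0.30 with voom, 1.20 without both libraries numbered 2 and 1.23 with the mandible pair also summed. In the mandible Nos2 ran from -3.19 to 4.83. In the ligated femur Sod2 ran from -0.87 to 0.67 and was 0.16 with the block by mouse. In the unligated femur Sod2 ran from -0.46 to 0.81 and was -0.46 without both libraries numbered 2. Between sites in LSD1WT, Nos2 ran from -5.68 to 3.18. Acod1 over the 3 cultures stayed at 2.15 to 2.52 in 26 alternatives. Depth limits Nos2, Arg1 and Arg2, with 0 to 64, 0 to 15 and 1 to 29 counts per library.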
